A study of Mus musculus with 5 samples.

Results

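In mouse embryonic stem (ES) cells, 838 windows of 1000 bases had a mean CpG methylation level of 70% or more in WT, out of 16881 autosomal windows that could be measured in WT and Fbxl10 T/T. A window was measured when at least 5 of its CpGs, not counting those inside the MspI site CCGG, had 10 or more reads in each of these libraries. Its level is the mean over these CpGs of the share of reads that show a cytosine. The other windows were much less methylated in WT: 14053 stood below 10%, 1417 at 10 to 30% and 573 at 30 to 70%. The WT level chose the 838 windows, so their WT level and every difference from WT below is a description and carries no test. A window that enters through a chance high reading in WT will also tend to read lower in any other library.

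The method was reduced representation bisulfite sequencing: MspI cuts the genome at CCGG, the short fragments are sequenced, and bisulfite turns unmethylated cytosines into bases read as T. There were 5 libraries, 1 per genotype. They are WT and Fbxl10 T/T, and the Polycomb mutants Ring1B -/-, Eed -/- and Ezh2 -/-. WT and Fbxl10 T/T ES cells are labelled C57BL/6J and passage 17, and were grown in serum with LIF on mouse embryonic feeder cells that were removed before use. The labels do not say what the T allele is. The Polycomb mutants were grown in serum with LIF and have no strain or passage label, so genotype, strain and culture cannot be told apart between them and the C57BL/6J libraries. All indexed fragments were pooled before size selection, and DNA methylated in vitro at CpGs served as a control for conversion. Autosomal CpGs had a median depth of 34 reads (WT), 24 reads (Fbxl10 T/T) and 3 reads (each Polycomb mutant). With 1 library per genotype no difference has a replicate check, and a Fisher test sets a pair of libraries, not their genotypes, against each other. Intervals are 95% Wilson intervals, cover counting error only, and are too narrow because a read enters the count of every CpG on it. For the same reason Fisher p-values on summed reads are too small. A count of summed reads can come from far fewer sequenced fragments.

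Most of a mammalian genome is methylated at CpG, while CpG islands, where most promoters lie, are kept free of it. DNMT1 copies CpG methylation after replication, and DNMT3A and DNMT3B, which are active in ES cells, add it to unmethylated DNA and also methylate some cytosines followed by adenine. FBXL10 (also KDM2B) binds unmethylated CpGs and brings a form of Polycomb repressive complex 1 to CpG islands, RING1B is the ubiquitin ligase of that complex, and EED and EZH2 belong to Polycomb repressive complex 2, which methylates histone H3.

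Sequences of a few windows are given first, because the levels below are levels of these CpGs. Stretches from 3 of the 4 windows that read lowest in Fbxl10 T/T and from the 2 that read highest among deeply read ones were spelled out from the deposited cytosine contexts (build mm9, + strand, 5′ to 3′), with each CpG in capitals.
chr6:53971407-53971433: tcCGagcatgccCGccCGccCGccCGg
chr4:129851340-129851358: tgcagccctggCGccagct
chr9:44061396-44061437: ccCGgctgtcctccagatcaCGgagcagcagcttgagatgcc
chr15:76008054-76008095: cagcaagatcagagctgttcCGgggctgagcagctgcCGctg
chr8:86194100-86194133: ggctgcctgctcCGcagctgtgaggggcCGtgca
In the first stretch, 4 CpGs outside MspI sites were measured, and their mean fell from 79.9% in WT to 8.75% in Fbxl10 T/T. The single CpG of the second stretch read 76.9% in WT (108 reads) but 11.7% in Fbxl10 T/T (77 reads). The measured CpG of the third, at its base 21, read 80% of 70 reads and 18.2% of 44 reads. The last 2 stretches went the other way: base 38 of the chromosome 15 stretch read 78.3% in WT (23 reads) but 95.5% in Fbxl10 T/T (22 reads), and the 2 CpGs from chromosome 8 had means of 89.3% and 92.6%.

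The methylated windows held few measured CpGs. A median of 5 CpGs per window was measured, 452 of 838 windows had exactly 5, 650 had 5 or 6, and the most was 22. In all, 5004 CpGs were measured, with a median of 40 reads each (WT) and 27 reads each (Fbxl10 T/T). Windows below 10% in WT had a median of 15 CpGs. The summed reads of a methylated window were 248 (WT) and 168 (Fbxl10 T/T) at the median. The window at chr11:3093001-3094000 stood apart from the others, with 15915 reads in WT over 12 CpGs against 3435 in the next deepest, and values that pool reads are therefore given without it where it matters.

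In Fbxl10 T/T these windows remained methylated for the most part but at a lower and more scattered level. The choice of windows held every WT level at 70% or more, so a wider spread over windows in another library follows from it. Their mean was 86.7% in WT, which was fixed to be high, and 74.6% in Fbxl10 T/T (SD over windows 15.3 points, n = 838 windows), with quartiles of 64.7, 77.9 and 86.5%. The lowest window stood at 10.3% and the highest at 98.8%. The level was 70% or more in 565 windows (67.4%) and below it in 273. Of all 16881 windows, 1516 reached 70% in Fbxl10 T/T, and the 565 were 37.3% of them. Differences from WT spread unevenly: 237 windows lay within 5 points of WT, 509 were lower by more and 92 higher by more, and 49 were lower by 40 points or more. The median difference was -9.58 points, beside 0.32 over all windows measured, and 642 of the 838 were below WT.

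A window was called changed when it differed by 20 points or more with an adjusted p under 0.05 (two-sided Fisher's exact test on summed reads, Benjamini-Hochberg adjustment over all windows). By this rule 238 of the 838 windows were lower in Fbxl10 T/T (28.4%), while 1.68% of all windows were called lower. The 1 window called higher, chr15:76005001-76006000, went from 74.4% (189 reads) to 95.4% (129 reads) over 6 CpGs, and 25.3% of all windows were called higher. A window at 70% or more has little room to rise and any other has less room to fall, so neither share is read as a result about these windows. The called windows had a median of 57.7% in Fbxl10 T/T, and 21 of them still stood at 70% or more.

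**Figure D1:**
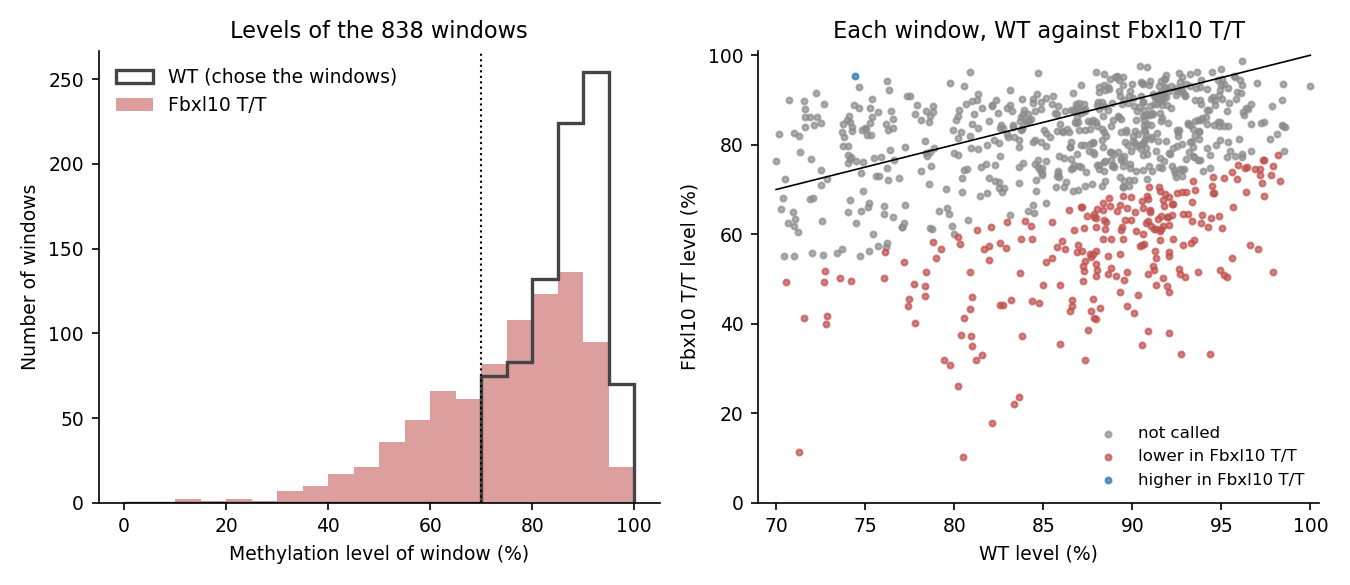
Left, number of windows (y axis) by methylation level in 5-point bins (x axis, percent) for WT, which chose the 838 windows, and Fbxl10 T/T; the dotted line marks 70%. Right, Fbxl10 T/T level against WT level for each window with the diagonal: 642 windows lie below it, and the 238 called lower (red) reach down to 10.3%.

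The Fbxl10 T/T level depended little on how high a window stood in WT. Windows at 70 to 80%, 80 to 90% and 90 to 100% in WT averaged 71.4% (SD 15.3, n = 158 windows), 73.1% (SD 16.2, n = 356) and 77.9% (SD 13.7, n = 324) in Fbxl10 T/T. Pearson's r of the levels in the pair of libraries was 0.18 over the 838 windows and Spearman's rho 0.19; the windows share both libraries and the WT side was cut at 70%. Across the threshold there was no step: the 75 windows at 70 to 75% in WT had a mean of 71.7% in Fbxl10 T/T, and the 69 windows at 65 to 70% had 71.1%. The 4 windows nearest inside it, with WT levels of up to 70.4%, read 76.5, 82.4, 65.7 and 68.1% in Fbxl10 T/T, and the 4 nearest outside it, at 69.6 to 69.97%, read 89.8, 89.0, 49.4 and 82.3%. Windows under the median of 168 Fbxl10 T/T reads averaged 75.2% and the others 74.0%. Of these groups 26.3 and 30.5% were called lower, beside 28.4% of all 838. An effect of read depth was not tested.

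By their level in Fbxl10 T/T, 61 windows stood below 50%, 212 at 50 to 70%, 449 at 70 to 90% and 116 at 90% or more. In 49 of the 61 windows below 50%, every CpG was below 70%, and in 11 at least 1 CpG was at 10% or less. Grouping by the window mean favours such counts, so they are a description only. Over all 838 windows the CpGs of a window differed more in Fbxl10 T/T (median SD over its CpGs 10.7 points) than in WT (5.77 points). Counting error adds to both SDs, and more in Fbxl10 T/T, where a CpG had a median of 27 reads against 40 in WT. The choice of windows also held WT at a high level, where there is less room to vary. Whether the CpGs differed beyond these limits was not tested. The share of single CpGs at 90% or more was 44.6% in WT and 24.8% in Fbxl10 T/T, and 586 of the 5004 CpGs (11.7%) were below 50% in Fbxl10 T/T.

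The 12 windows lowest in Fbxl10 T/T lay on 9 chromosomes and had 5 to 12 measured CpGs each. They ranged from 71.3 to 94.4% in WT and from 10.3 to 33.2% in Fbxl10 T/T. The lowest, chr6:53971001-53972000, held the first sequence above, and its level was 80.5% in WT (SD over 6 CpGs 5.25 points, 153 reads), while Fbxl10 T/T read 10.3% (SD 3.06, 140 reads). All 6 of its CpGs lay between 5 and 13.3% in Fbxl10 T/T and between 71.4 and 86.2% in WT. The window was named for its low Fbxl10 T/T level, so ranges that lie apart follow from the choice. CpGs of a window can share reads, so the 6 are not separate observations.

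The next, chr4:129851001-129852000, held the second sequence and begins 46 bases downstream of the start of Tinagl1, which encodes a secreted matrix protein. It went from 71.3% in WT (SD 18.96 over 5 CpGs, 334 reads) down to 11.3% in Fbxl10 T/T (SD 1.34, 220 reads). In WT 1 of its CpGs read 37.9% and the other 4 read 75.9 to 84.6%, while in Fbxl10 T/T all 5 read 9.09 to 12.5%. The window at chr9:44061001-44062000, with the third sequence, fell from 83.4% (SD 6.26 over 7 CpGs, 349 reads) to 22.1% (SD 9.72, 273 reads). In chr16:91760001-91761000 the level was 82.1% in WT and 17.8% in Fbxl10 T/T, and its CpGs were spread from 2.56 to 31.3% in the latter. The 2 windows chr5:111935001-111936000 and chr10:80681001-80682000 stood at 83.7 and 80.2% in WT and at 23.6 and 26.0% in Fbxl10 T/T. The deepest window, chr11:3093001-3094000, is the 8th lowest: it read 81.2% in WT (SD 7.39 over 12 CpGs) and 31.9% in Fbxl10 T/T (SD 5.03, 16384 reads).

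The 6 windows highest in Fbxl10 T/T, among those with 200 or more reads in WT and Fbxl10 T/T alike, lay at 94.5 to 96.2%, and at 80.9 to 96.0% in WT. The highest, chr15:76008001-76009000, held the fourth sequence and rose from 80.9% (SD 7.81 over 8 CpGs, 293 reads) to 96.2% (SD 3.54, 216 reads). It lies 2 kb from the only window called higher. In chr8:86194001-86195000, with the fifth sequence, all 7 CpGs read 90.2 to 100% in Fbxl10 T/T and 87.1 to 92.1% in WT. In chr9:3946001-3947000 and chr17:23956001-23957000 the levels were 95.1 and 94.8% in WT and 94.7 and 94.6% in Fbxl10 T/T, with SDs over CpGs of 1.68 to 3.40 points in either library.

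Few of the methylated windows lay at promoters. Gene starts were placed by matching RefSeq promoter sequences to the bases spelled out by the deposited contexts, which placed 8453 of 25748 autosomal genes. Starts on chromosome 18, which holds 21 of the windows, were not analysed here. Of the 838 windows, 14 held such a start (1.67%), against 35.8% of all windows, and 81 lay within 5 kb of one (9.67%, against 55.1%). These shares count placed starts only, which need sequenced CpGs nearby. The 14 windows ranged from 54.6 to 94.5% in Fbxl10 T/T, 11 were below WT and 3 above as means over CpGs, and 5 were called lower.

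The starts belong to protein-coding genes and to predicted or noncoding ones. Among the latter, Gm34347 (91.3% in WT, 54.6% in Fbxl10 T/T), the overlapping pair Gm36794 and Gm42156 (89.3 and 55.6%), Gm24463 (88.0 and 63.6%) and Gm31129 (91.5 and 70.5%) were called lower. The call at Gm24463 was lost at a minimum of 5 reads per CpG, where the difference was -8.74 points. The fifth window called lower held the start of Fgf6, which encodes a fibroblast growth factor. Its 5 CpGs averaged 88.4% in WT (SD 3.38 points, 322 reads), while Fbxl10 T/T read 61.3% (SD 11.6, 286 reads), and each of them read 83.7 to 93.0% in WT and 41.5 to 69.7% in Fbxl10 T/T. Here too CpGs can share reads, so the 5 are not separate observations.

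The 3 windows above WT, as means over CpGs, held starts of genes expressed in the germ line. Promoters of such genes are a known group of methylated CpG-rich promoters in somatic cells. Sycp1, which encodes a part of the synaptonemal complex of meiosis, stood at 76.4% in WT (SD 14.0 over 7 CpGs, 421 reads), while Fbxl10 T/T read 78.8% (SD 13.3, 240 reads). Slc25a31, the ADP/ATP carrier of male germ cells, stood at 74.8% (SD 9.60 over 6 CpGs, 246 reads) and 83.3% (SD 5.24, 152 reads). Pramel1, of a gene family expressed in testis, went from 71.9% (SD 17.6 over 5 CpGs, 172 reads) to 86.2% (SD 10.7, 142 reads). None of these windows was called changed. Their WT levels of 71.9 to 76.4% lay near the threshold, where a window has the most room to rise. Pramel1 is not in the list of germline genes used below, and the listed gene Meioc had a window called lower.

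Lhcgr, which encodes the receptor of luteinizing hormone, did not move evenly along its window. Its 13 CpGs averaged 78.6% in WT (SD 7.47 points, 552 reads), while Fbxl10 T/T read 71.3% (SD 15.1, 374 reads). The 6 measured CpGs in the 250 bases before its start averaged 79.3% in WT (278 reads) and 58.9% in Fbxl10 T/T (194 reads). Tmem233 stood at 75.7 and 57.3%, 4930417O22Rik at 70.4 and 68.1%, Gm20052 at 72.0 and 68.1%, C230014O12Rik at 90.7 and 83.2% and Gm52531 at 96.0 and 94.5%, in WT and Fbxl10 T/T, and none of these was called. Weighted by reads, 4930417O22Rik and Gm20052 were 1.34 and 0.65 points above WT, and with the CpGs inside CCGG kept 4930417O22Rik was 4.75 points above.

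**Figure D2:**
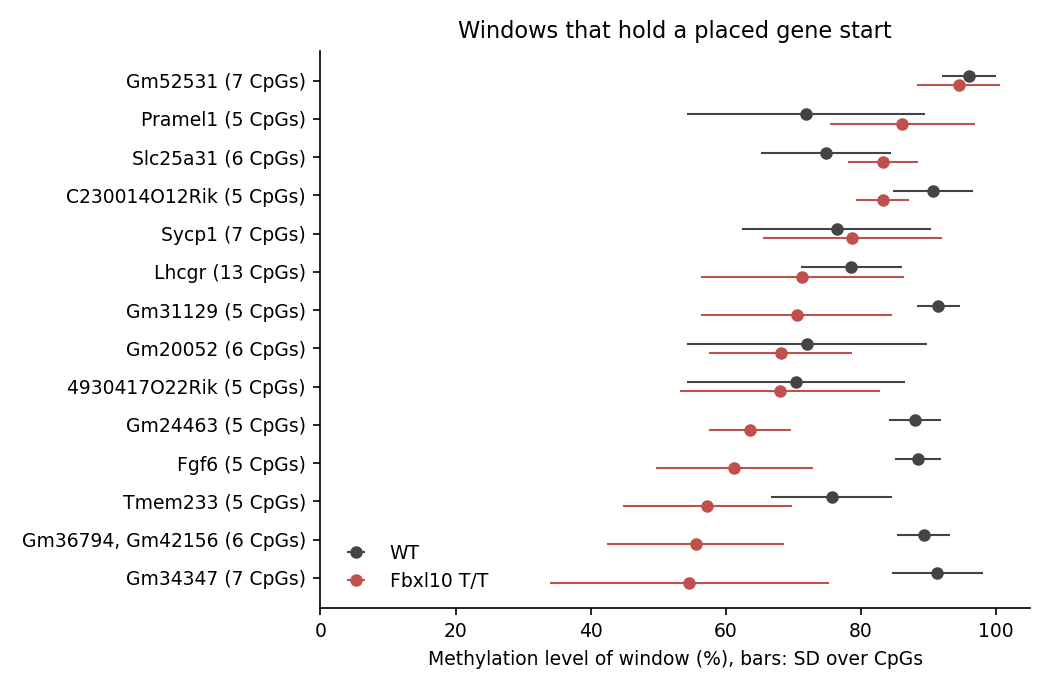
Methylation level (x axis, percent) of the 14 windows that hold a placed gene start, in WT and Fbxl10 T/T; bars are the SD over the CpGs of the window, whose number is in brackets. Gm34347 at 54.6% is lowest in Fbxl10 T/T and Gm52531 at 94.5% highest, and as means over CpGs only Sycp1, Slc25a31 and Pramel1 stand above WT (weighted by reads, 4930417O22Rik and Gm20052 do too).

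The 250 bases before the starts of Lhcgr, Sycp1 and Fgf6 are shown from RefSeq (build GRCm38.p6, on the gene's strand, 5′ to 3′, CpGs in capitals), because their measured CpGs moved differently.
Lhcgr, chr17:88792015-88792264, - strand: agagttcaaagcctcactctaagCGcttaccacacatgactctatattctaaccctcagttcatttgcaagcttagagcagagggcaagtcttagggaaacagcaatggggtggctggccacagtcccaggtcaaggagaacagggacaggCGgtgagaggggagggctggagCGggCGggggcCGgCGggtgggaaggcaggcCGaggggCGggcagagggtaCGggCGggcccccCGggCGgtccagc
Sycp1, chr3:102936101-102936350, - strand: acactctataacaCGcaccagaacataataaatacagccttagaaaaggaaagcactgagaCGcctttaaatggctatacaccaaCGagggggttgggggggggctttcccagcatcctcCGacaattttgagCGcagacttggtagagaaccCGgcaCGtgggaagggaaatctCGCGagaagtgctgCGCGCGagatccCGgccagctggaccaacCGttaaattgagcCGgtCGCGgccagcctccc
Fgf6, chr6:127015292-127015541, + strand: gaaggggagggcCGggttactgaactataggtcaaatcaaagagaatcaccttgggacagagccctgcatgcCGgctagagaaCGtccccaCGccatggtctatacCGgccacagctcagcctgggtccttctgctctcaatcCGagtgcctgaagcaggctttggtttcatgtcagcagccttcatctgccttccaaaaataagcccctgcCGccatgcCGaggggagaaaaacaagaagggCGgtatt
The Lhcgr stretch holds 12 CpGs, most of them close to the start, that of Sycp1 17 and that of Fgf6 9. All 7 measured CpGs of the Sycp1 window lie in the stretch shown, and 2 of the 5 of Fgf6. The palindrome CACGTG, the binding sequence of E-box factors such as MAX, reads the same on both strands and stands in the promoter sequences (250 bases before to 50 after the start) of Sycp1, Slc25a31 and Fgf6, 3 of the 15 promoters at these windows, and in 7.14% of the 31396 autosomal promoter sequences. It is a match of letters and not a measured site.

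Of all 8453 genes with a placed start, 89 (1.05%) had a methylated window within 5 kb, and the listed gene groups are given beside that share. Of 45 germline genes with a promoter sequence, 13 had a placed start and 3 of these (23.1%) had a methylated window within 5 kb: Sycp1, Slc25a31 and Meioc. Meioc is needed for meiotic prophase, and its window, at -4899 bases from the start, went from 87.3% in WT (SD 5.76 over 6 CpGs, 252 reads) to 52.9% in Fbxl10 T/T (SD 17.9, 176 reads), which was called lower. Of 192 developmental regulators of the kind bound by Polycomb, 104 had a placed start and 2 (1.92%) a methylated window within 5 kb. These were Fgf6 and Fgf22, whose window, 3147 bases downstream of the start, stood at 86.2% in WT and 87.5% in Fbxl10 T/T. None of the 16 imprinted genes placed, of 37, had one, nor did any of the 12 placed genes of the DNA methylation and Polycomb machinery, the 6 placed pluripotency genes or the 2 placed olfactory receptor genes. At 1.05% of all placed genes, a count of 0 in lists of this size says nothing about these groups. No clustered protocadherin had a promoter sequence in the table used.

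The windows were scattered over the genome and rarely lay side by side. Only 10 pairs of them adjoined, and 67 lay within 20 kb of another. The largest such group was 4 windows in chr12:113410001-113418000, the nearest 25582 and the farthest 32582 bases downstream of the start of Kif26a, which encodes a kinesin-like protein. Their levels were 88.0, 92.0, 83.7 and 88.7% in WT and 52.0, 68.3, 51.4 and 51.2% in Fbxl10 T/T, in genome order, so each of the 4 was lower and each was called. By chromosome the mean in Fbxl10 T/T ran from 67.2% on chromosome 12 (35 windows) and 68.3% on chromosome 16 (21 windows) to 78.9% on chromosome 17 (40 windows). Windows called lower numbered 18 (51.4%), 10 (47.6%) and 6 (15%) there, beside 28.4% of all 838. The lowest share was on chromosome 3, with 3 of 33 (9.09%). The 4 windows near Kif26a are among those of chromosome 12, and differences between chromosomes were not tested.

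The bases beside a CpG went with small differences. CpGs flanked on both sides by C or G averaged 87.6% in WT and 75.7% in Fbxl10 T/T (1530 CpGs), those with A or T on 1 side 86.5 and 75.1% (2637 CpGs), and those with A or T on both sides 84.2 and 72.2% (837 CpGs). The SD over CpGs in Fbxl10 T/T was 19.3 to 20.5 points in these groups, larger than the differences between their means. ACGT was the lowest of the 15 contexts, at 68.0% in Fbxl10 T/T and 82.4% in WT (212 CpGs), and CCGT the highest in Fbxl10 T/T, at 77.7% (278 CpGs).

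CpGs inside the MspI sites of the same windows did not enter the choice of windows, although many lie on the same fragments. Their pooled level was 83.4% of 175475 reads in WT (83.2 to 83.5%) and 75.5% of 119152 reads in Fbxl10 T/T (75.2 to 75.7%). Without the deepest window it was 76.9% in Fbxl10 T/T. It was lower in Fbxl10 T/T than in WT in 581 of the 833 windows with 20 or more such reads in each library, with a median difference of -5.51 points. By 20 points or more it was lower in 124 windows and higher in 7. In all 12 of the lowest windows the MspI-site CpGs were lower as well, from 15.2 to 70% in Fbxl10 T/T against 64.0 to 98.7% in WT. Over the 833 windows the Fbxl10 T/T level at MspI-site and at other CpGs had a Pearson's r of 0.71, and the points share library and, in part, reads.

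Cytosines outside CpG, which the choice of windows did not use, also read lower in Fbxl10 T/T. At cytosines followed by adenine in the methylated windows, 2.77% of 286831 reads showed a cytosine in WT (2.71 to 2.83%) and 1.20% of 193106 in Fbxl10 T/T (1.15 to 1.25%). Over the cytosines read in both libraries, 546 of 633 windows with 100 or more such reads in each were lower in Fbxl10 T/T, 74 were higher and 13 equal. The median window read 2.19% in WT and 0.61% in Fbxl10 T/T. Cytosines followed by thymine, which carry less methylation in ES cells and also count failed conversion, read 0.90% and 0.51%.

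The fall at cytosines followed by adenine was not seen in the least methylated windows. In windows below 10% in WT the level was 0.48% in WT and 0.52% in Fbxl10 T/T, and at cytosines followed by thymine 0.43% and 0.42%. In windows at 30 to 70% it was 1.35% in WT and 1.91% in Fbxl10 T/T, yet 263 of 489 of these windows were lower and 177 higher. Each value is a description of 1 library per genotype, and the difference between the groups of windows was not tested.

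**Figure D3:**
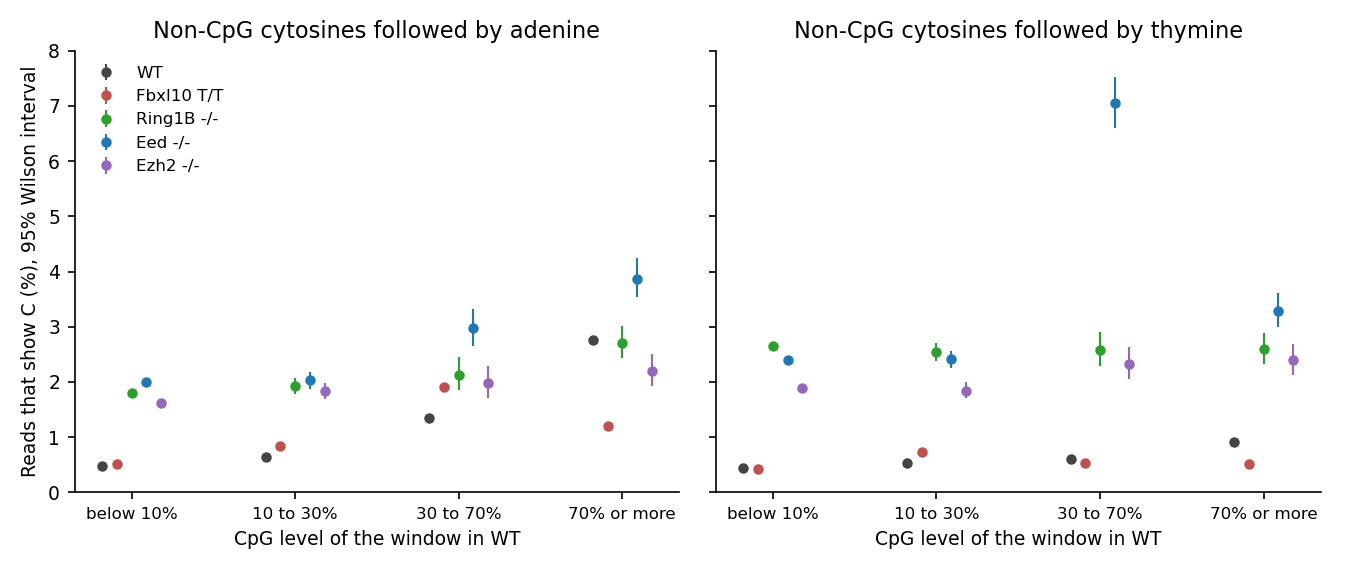
Share of reads that show a cytosine (y axis, percent, with 95% Wilson intervals) at cytosines followed by adenine (left) or thymine (right), by the CpG level of the window in WT (x axis), for the 5 libraries. In windows at 70% or more the share before adenine is 2.77% in WT and 1.20% in Fbxl10 T/T, whereas below 10% they read 0.48 and 0.52%, and the Polycomb mutants read higher there than either.

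Within the methylated windows, the level before adenine followed the CpG level of the window in Fbxl10 T/T. In Fbxl10 T/T it was 0.51% (0.41 to 0.64%) in the windows below 50%, 0.71% at 50 to 70%, 1.39% at 70 to 90% and 1.93% (1.76 to 2.11%) at 90% or more, the deepest window left out. In WT the same windows read 2.12% (1.94 to 2.32%), 2.72%, 2.87% and 2.85% (2.68 to 3.02%). In each of the 4 groups the Fbxl10 T/T interval lay below the WT interval. The MspI-site CpGs followed the same order in Fbxl10 T/T, with 57.5, 69.9, 81.2 and 87.4%, against 81.3, 83.9, 82.7 and 85.9% in WT.

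CpGs just outside the methylated windows were less methylated and did not fall on average. In the adjoining kb, 619 CpGs averaged 54.0% in WT and 58.6% in Fbxl10 T/T, and in the second to the fifth kb 2832 CpGs averaged 21.8 and 31.4%. CpGs beside windows at 90% or more in Fbxl10 T/T stood at 72.7% in WT and 81.7% in Fbxl10 T/T (83 CpGs), and those beside windows at 70 to 90% at 58.2 and 65.2% (348 CpGs). Beside windows at 50 to 70% they read 46.0 and 42.4% (208 CpGs), and beside windows below 50% 50.7 and 45.6% (28 CpGs). These 28 CpGs lay beside 11 windows. At a minimum of 20 reads per CpG the last direction was reversed, at 48.8 and 50.7% (16 CpGs beside 8 windows). The other groups kept their direction at that minimum. The methylated windows were chosen by their WT level, and their own CpGs do not count as neighbours. An adjoining kb that was itself a methylated window, as in 10 adjoining pairs, is thus left out. This favours neighbours with a low WT level, so their direction against WT is a description only. Most windows had no covered CpG in the adjoining kb: 210 of the 838 did.

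The Polycomb mutants also read below WT in these windows, and Ezh2 -/- lowest. Pooled over the 704 to 715 windows with reads at the measured CpGs, the level was 70.5% of 11082 reads in Ring1B -/- (69.6 to 71.3%), 71.6% of 11611 in Eed -/- (70.7 to 72.4%) and 62.8% of 9807 in Ezh2 -/- (61.8 to 63.7%). As means over CpGs, at a median of 2 reads per CpG, the levels were 67.0% in Ring1B -/-, 70.4% in Eed -/- and 64.0% in Ezh2 -/-. The pooled Ring1B -/- level may lean on the window starting at chr8:125951001. That window had 1499 Ring1B -/- reads at 83.9% over CpGs shared with Fbxl10 T/T. At the MspI-site CpGs the levels of the mutants, in the same order, were 75.5, 75.3 and 68.8%. Cytosines followed by thymine, which count failed conversion as well as methylation, read higher in these libraries: in the methylated windows they stood at 2.60, 3.29 and 2.39%, against 0.90% in WT and 0.51% in Fbxl10 T/T. Before adenine they read 2.71, 3.87 and 2.20%, and in windows below 10% in WT 1.81, 1.99 and 1.62%. The part of failed conversion in the CpG levels was not tested.

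Windows low in Fbxl10 T/T were also the lower ones in each Polycomb mutant. In windows below 50%, at 50 to 70%, at 70 to 90% and at 90% or more in Fbxl10 T/T, the deepest window left out, Ring1B -/- read 59.1% (55.2 to 63.0%), 69.7%, 72.0% and 75.6% (73.2 to 77.8%). Eed -/- read 59.2% (55.3 to 62.9%), 65.6%, 73.9% and 78.7% (76.5 to 80.7%). Ezh2 -/- read 55.5% (51.3 to 59.6%), 57.8%, 63.5% and 72.3% (69.7 to 74.8%). The intervals of the lowest and the highest group did not overlap in any mutant, and the lowest group rests on 555 to 637 reads. In Ring1B -/- single windows weighed on the middle groups. The window starting at chr8:125951001 gave 1535 of the 6627 reads at 70 to 90%, at a level of 83.5%. The window starting at chr1:119994001 gave 478 of the 2317 reads at 50 to 70%, at 79.1%. It weighed on Eed -/- too, with 615 reads at 58.5% over CpGs shared with Fbxl10 T/T, beside 2712 reads at 50 to 70%. The order of the middle groups without these windows was not tested. In WT the 4 groups read 82.6, 85.5, 85.1 and 90.1%. In the windows below 50% the mutants thus read above Fbxl10 T/T, which stood at 40.1% there, and in the windows at 70% or more below it. Fbxl10 T/T chose these groups, so its own level in them is not a comparison with the mutants.

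**Figure D4:**
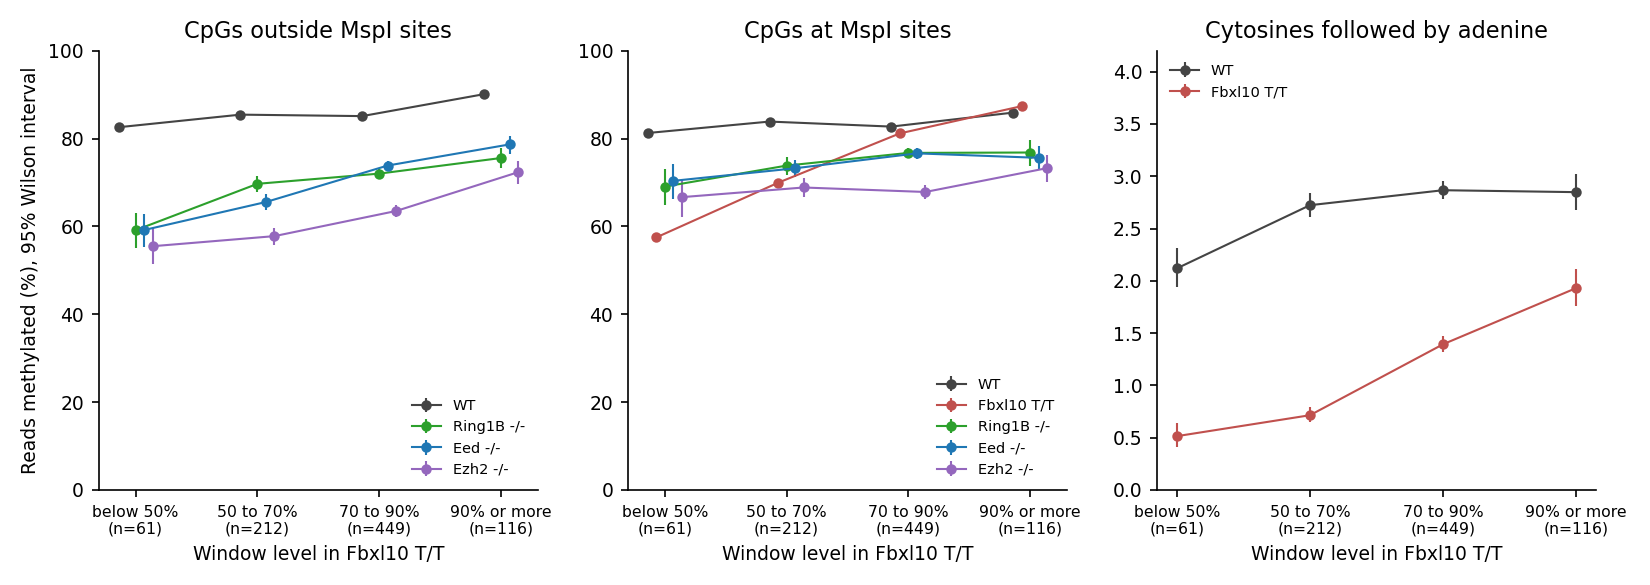
Share of reads methylated (y axes, percent, with 95% Wilson intervals) in the 4 groups of methylated windows by their Fbxl10 T/T level (x axis, with the number of windows; the deepest window is in the first number but not in the values). Left, CpGs outside MspI sites in WT and the Polycomb mutants, which rise from 55.5 to 59.2% in the lowest group to 72.3 to 78.7% in the highest; middle, MspI-site CpGs in all 5 libraries; right, cytosines followed by adenine in WT and Fbxl10 T/T.

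Fbxl10 T/T and the mutants were then tested against each other window by window, on reads summed over CpGs with at least 1 read in each of the pair, in windows with 5 or more such CpGs and 30 or more reads in each. Neither library of such a pair chose the 838 windows. All 3 comparisons share the Fbxl10 T/T library. Among the methylated windows, 49 could be tested for Ring1B -/-, 60 for Eed -/- and 57 for Ezh2 -/-, so each result rests on a small and deeply read share of the 838. Calls again needed 20 points and an adjusted p under 0.05 over all windows tested.

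In Ring1B -/- the 49 windows averaged 67.9% (SD over windows 17.5 points), and 76.1% in Fbxl10 T/T (SD 15.7). The mutant was called lower in 10 (20.4%, against 20.8% of the 8585 windows tested) and higher in 3 (6.12%, against 0.454%). The share called lower is thus near that of all windows, as for Eed -/- below. In Eed -/- the 60 windows averaged 70.1% (SD 19.6) and in Fbxl10 T/T 75.8% (SD 16.1), with 12 called lower (20%, against 22.2% of 9005 windows) and 8 called higher (13.3%, against 0.289%). In Ezh2 -/- the 57 windows averaged 60.4% (SD 21.2) and in Fbxl10 T/T 75.8% (SD 15.0), with 23 called lower (40.4%, against 21.7% of 8404 windows) and 3 called higher (5.26%, against 0.19%). Most other windows are nearly unmethylated in the mutants, with means of 3.62 to 4.53% over all windows tested, so their calls depend on the Fbxl10 T/T level. The shares of the methylated windows were not tested against those of the other windows. Over the tested windows the level in Fbxl10 T/T and in the mutant had a Pearson's r of 0.22 for Ring1B -/-, 0.20 for Eed -/- and 0.13 for Ezh2 -/-.

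**Figure D5:**
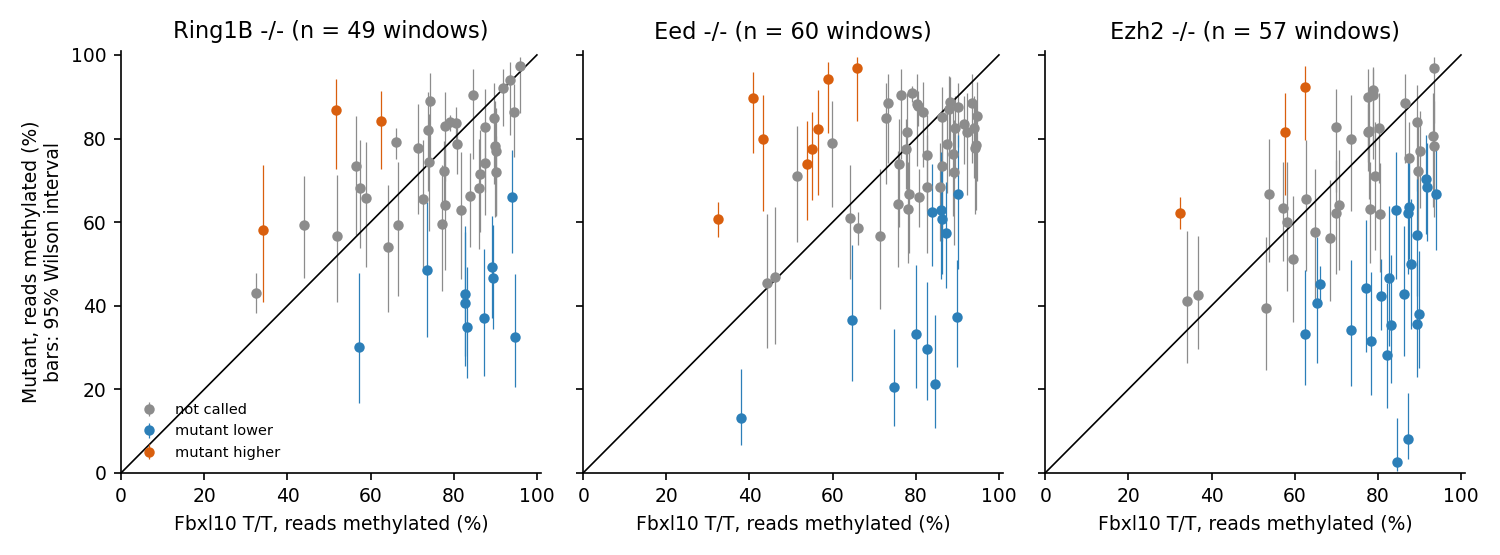
Share of reads methylated in a Polycomb mutant (y axis, percent, with 95% Wilson intervals) against Fbxl10 T/T (x axis, percent) for each methylated window with enough reads, with the diagonal. Windows called lower in the mutant number 10 of 49 in Ring1B -/-, 12 of 60 in Eed -/- and 23 of 57 in Ezh2 -/-, and those called higher 3, 8 and 3.

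Some windows were nearly unmethylated in 1 or more Polycomb mutants while they stayed methylated in WT and Fbxl10 T/T. The windows here and in the next paragraph were named for being among the 4 lowest in a mutant, so low values follow from the naming. Their few summed reads can come from far fewer fragments, so the intervals are too narrow and the p-values too small. The window chr12:92886001-92887000 read 80.1% in WT (648 reads) and 85.6% in Fbxl10 T/T (396 reads) as means over 10 CpGs. It read 2.56% of 39 reads in Ezh2 -/- (0.45 to 13.2%, adjusted p = 1.11e-24 against Fbxl10 T/T, Fisher's exact test) and 21.2% of 33 reads in Eed -/- (10.7 to 37.8%, adjusted p = 5.68e-13), and 60.9% of 23 reads in Ring1B -/-, too few to be tested. The window chr11:85030001-85031000 read 76.5% in WT and 87.6% in Fbxl10 T/T, and was lower in all 3 mutants: 8.16% of 49 reads in Ezh2 -/- (adjusted p = 3.97e-28, Fisher's exact test), 37.1% of 35 reads in Ring1B -/- (adjusted p = 1.06e-09) and 57.4% of 54 reads in Eed -/- (adjusted p = 3.98e-06).

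The window chr10:60708001-60709000 was also low in all 3, with 28.1% of 32 reads in Ezh2 -/-, 29.7% of 37 in Eed -/- and 42.9% of 35 in Ring1B -/-, against 82.2% in Fbxl10 T/T and 75.3% in WT as means over its 6 CpGs. The window chr9:108673001-108674000 read 34.8% of 46 reads in Ring1B -/- and 35.3% of 34 in Ezh2 -/-, with 30.4% of 23 untested reads in Eed -/-, and 83.7% in Fbxl10 T/T. In chr2:170353001-170354000 only Ring1B -/- was low, with 32.6% of 43 tested reads (adjusted p = 3.62e-17, Fisher's exact test), while Eed -/- read 85.3% of 34 (adjusted p = 0.133) and Fbxl10 T/T 95.9%. In chr9:119024001-119025000 Eed -/- read 20.5% of 44 reads and Fbxl10 T/T 74.3%, and Ring1B -/- read 39.3% of 28 untested reads. At chr8:73269001-73270000 Ring1B -/- read 30% of 30 reads, Eed -/- 11.5% of 26 and Ezh2 -/- 43.8% of 16, both untested, and Fbxl10 T/T was itself lower than WT, at 58.9 against 83.7%.

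At the window chr4:140425001-140426000, also named as 1 of the 4 lowest in Eed -/-, several libraries were low. It read 77.5% in WT and 45.5% in Fbxl10 T/T, with an SD of 29.5 points over its 6 CpGs in the latter, and 13.2% of 53 reads in Eed -/- (6.55 to 24.8%, adjusted p = 0.00228 against Fbxl10 T/T, Fisher's exact test) and 3.85% of 26 reads in Ring1B -/- (0.68 to 18.9%). Ezh2 -/- had 6 reads there. Of the windows at promoters, Sycp1 stood at 31.4% of 35 reads in Ezh2 -/- (18.6 to 48.0%, adjusted p = 3.46e-07 against Fbxl10 T/T, Fisher's exact test) and at 66.7% of 48 reads in Eed -/- (52.5 to 78.3%, adjusted p = 0.199). Lhcgr stood at 40.5% of 37 reads in Ezh2 -/- (26.3 to 56.5%), against 65.3% at the same CpGs in Fbxl10 T/T (adjusted p = 0.0196, Fisher's exact test).

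The 14 calls of a mutant above Fbxl10 T/T need a mutant level 20 points higher, and the Fbxl10 T/T level at them was 32.4 to 65.8%. The deepest window, at 32.4% in Fbxl10 T/T, read 62.2% of 598 reads in Ezh2 -/- (58.3 to 66.0%, adjusted p = 1.46e-46, Fisher's exact test) and 60.7% of 507 in Eed -/- (56.4 to 64.9%, adjusted p = 2.59e-36). In Ring1B -/- it read 43.1% of 411 reads (38.4 to 47.9%), which is under the 20 points that a call needs. The window chr8:122715001-122716000 read 89.7% of 39 reads in Eed -/- and 40.8% in Fbxl10 T/T at the same CpGs (adjusted p = 2.52e-08, Fisher's exact test). At chr3:3694001-3695000 Ring1B -/- read 84.2% of 57 reads and Ezh2 -/- 92.3% of 39, against 62.4% in Fbxl10 T/T. The windows on chromosomes 8 and 3 are named here after their values were seen.

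Against WT, which chose the windows, the mutants were lower in 21 of 49 windows (Ring1B -/-), 18 of 60 (Eed -/-) and 26 of 57 (Ezh2 -/-), and higher in 0, 1 and 0. Over all windows the shares called lower were 0.558, 0.665 and 0.795%, and those called higher 1.31, 0.343 and 0.213%. These counts describe the choice of windows as much as the mutants, and nothing is read from them.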

How the data were processed

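The labels' protocols describe MspI digestion, indexed adapters, pooling, size selection and bisulfite conversion. BSMAP 2.74 and build mm9 are named in the submitters' processing notes; trimming and removal of duplicates are not given in the sources used here. The deposited values used are raw counts per cytosine, per the file headers: reads that show C and reads that show C or T, with both strands of a CpG summed on the + strand row. CpGs were taken from 19 autosomes, with 10 or more reads in WT and Fbxl10 T/T and outside CCGG; the X chromosome was left out. At 10 reads a CpG resolves steps of 10 points. Levels, Wilson intervals and Fisher's exact tests were computed with Python 3.11.15, pandas 2.3.3 and scipy 1.17.1. Windows of CpGs with few reads in the Polycomb mutants were compared on summed reads. Bases were spelled from the deposited 5-letter contexts, and RefSeq promoters (250 bases before to 50 after each start) were placed where 40 or more bases matched with at most 1% mismatches; no coordinates were moved between builds. Windows were named by rule: the 12 lowest and 6 highest in Fbxl10 T/T, 4 on each side of the threshold, the 4 lowest per Polycomb mutant, and those near listed genes. The members and lists were chosen with earlier results of these data known. On simulated reads at the real depths, 0 of 16681 unchanged windows were called in Fbxl10 T/T against WT, and of 50 windows lowered by 20 points 19 were called and by 30 points 50; against Ring1B -/-, 16 and 40 of 50 were called, against Eed -/- 23 and 35, and against Ezh2 -/- 15 and 34. Of unchanged windows, 10 of 8385, 9 of 8805 and 10 of 8204 were called in these mutant comparisons. The simulation drew each CpG on its own and gave unchanged windows the same rates in both libraries. It holds no reads shared between CpGs and no spread between libraries, so it cannot say how often real calls err.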

Additional observations from a re-analysis of the deposited data

How the results depend on the processing

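The number of methylated windows depends on which windows are admitted. It was 838, and 437 at a minimum of 20 reads, 4687 with at least 3 CpGs, 28 with at least 10 CpGs and 6223 with the CpGs inside CCGG kept. Under the same settings the windows called lower in Fbxl10 T/T numbered 121, 1614, 5 and 1873, in place of 238. As shares of the methylated windows these were 27.7, 34.4, 17.9 and 30.1%, in place of 28.4%. With calls at 10 and 30 points 397 and 115 windows were called lower (47.4 and 13.7%). Shares over all windows were not computed for these settings. The mean Fbxl10 T/T level moved less, from 74.6% to 74.9, 72.7, 76.6 and 73.6% under these settings, 74.1% at a minimum of 5 reads, 73.9 and 75.4% for WT levels of 60 and 80% or more, and 74.3% when weighted by reads. Of the counts against Fbxl10 T/T, those for Ring1B -/- lower (10) were 45 of 203 windows at 10 reads per window, 1 of 10 at 60 reads, 16 at 10 points and 27 of 168 with CCGG kept, and those for Ring1B -/- higher (3) were 8, 0, 5 and 11, and 1 at 30 points. For Eed -/- lower (12) they were 45 of 236, 0 of 9 and 34 of 191 at 10 reads, at 60 reads and with CCGG kept, and 5 at 30 points, and for Eed -/- higher (8) they were 20, 1, 21 and 4. For Ezh2 -/- lower (23) they were 65 of 206, 3 of 7, 48 of 179 and 14, and for Ezh2 -/- higher (3) they were 9, 1, 8 and 0. Over all windows tested under these settings, 18.3 to 23.2% were called lower in Ring1B -/-, 18.8 to 24.0% in Eed -/- and 18.2 to 23.6% in Ezh2 -/-. Those called higher were 0.198 to 2.53%, 0.0805 to 1.72% and 0.0357 to 1.05%, in the same order. At 60 reads only 7 to 10 methylated windows were left, so fewer calls follow from the setting itself; the cause of the other changes was not tested. The MspI-site level in Fbxl10 T/T was 76.9% in place of 75.5% without the deepest window, and the level before adenine, over the cytosines read in both libraries, 0.98% in place of 1.19% without cytosines at 50% or more in either (1.20% over all cytosines read); both settings were chosen after the data were seen. Over 7 settings, 174 of 175 differences of the 31 named windows from WT kept their side of the call, the exception being the Gm24463 window, and 172 kept their sign, the exceptions being the uncalled windows of 4930417O22Rik (4.75 points with CCGG kept, 1.34 when weighted by reads) and Gm20052 (0.65 when weighted by reads). No paired analysis was possible because there is 1 library per genotype and the labels give no replicate numbers. The Polycomb mutants, with a median of 3 reads per CpG, allow a test in 49 to 60 of the 838 windows only.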
